A study of Mus musculus with 21 samples.

Results

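The 10 transcription factors of naive pluripotency described here are Esrrb, Klf2, Klf4, Klf5, Tfcp2l1, Tbx3, Nr0b1, Nr5a2, Prdm14 and Zfp42. They were chosen by name as known factors, and each has a row in both of the study's expression tables, which hold 21161 gene names for the cell states and 55291 for the lactate series. RNA was sequenced in 21 libraries, 3 per group, of mouse cells of a line that the labels call OG2, and the treatment label of the cell-state and 0 mM libraries is WT. The cell-state table holds 2-cell-like cells (2CLCs, which carry transcripts of the 2-cell embryo), epiblast stem cells (EpiSCs, a later, primed form of pluripotency), embryonic fibroblasts (MEFs) and embryonic stem cells (ESCs). The lactate table holds ESCs given 0, 60 or 80 mM sodium lactate. How the 2CLCs were obtained, the culture medium and the length of the lactate treatment are not given in the sources used here. Nothing in the labels says that the 3 libraries of a group came from separate cultures, so the p-values measure only the spread between these samples.

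Naive pluripotency is the state of the epiblast before implantation, and mouse ESCs hold it in culture. The core factors Pou5f1, Sox2 and Nanog are shared with later stages or mark pluripotency in general, whereas the factors described here form a second layer that is largely lost when cells pass to the primed state. Leukaemia inhibitory factor (LIF) acts through the kinase JAK and the factor STAT3 on Klf4 and Tfcp2l1. WNT signalling relieves the repressor Tcf7l1 from Esrrb, Klf2, Nr0b1 and others. FGF signalling through ERK drives cells out of the naive state. Klf2, Klf4 and Klf5 are zinc-finger factors with overlapping binding sites that can stand in for each other in self-renewal. Esrrb and Nr5a2 are orphan nuclear receptors, and Nr0b1 (Dax1) is an atypical nuclear receptor without a DNA-binding domain that acts as a corepressor. Tfcp2l1 is a grainyhead-family factor and Tbx3 is a T-box factor. Prdm14 represses FGF receptor and DNA methyltransferase genes, and Zfp42 (Rex1) is a zinc-finger gene widely used as a marker of the naive state.

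The labels were checked against marker genes. The 12 2-cell markers summed to between 23074 and 26324 FPKM in 2CLC libraries, against 8.77 to 9.34 FPKM in ESC libraries. The 13 measured primed-state genes summed to between 678 and 753 FPKM in EpiSCs, against 119 to 132 FPKM in ESCs. The 12 fibroblast markers summed to between 2570 and 2639 FPKM in MEFs, against 102 to 105 FPKM in ESCs. Pou5f1 was at 552 ± 19.1 FPKM in 2CLCs, 677 ± 88.2 FPKM in EpiSCs and 779 ± 3.40 FPKM in ESCs (SD, n = 3 each). It was listed at 0 in every MEF library. Values are FPKM, fragment counts scaled to transcript length and library size. Library sums lay between 375926 and 519915 FPKM in the cell-state table, with the 3 highest in 2CLCs, and between 396792 and 409131 FPKM in the lactate table; the number of reads behind a value is unknown. A single library stood apart, EpiSC replicate 1, whose log2 values correlated at 0.973 with those of the other EpiSC libraries across genes, against 0.989 to 0.996 for all other pairs within a group. The tables were made separately, so no level of one is set against a level of the other.

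The window from 250 bases before to 50 bases after the annotated start is printed for 4 members, to show the sequence there. Nr0b1 and Tfcp2l1 fell with lactate, and Klf4 and Zfp42 rose. Zfp42 rose the least of the factors that rose (9.28% at 80 mM), and was not called after median-of-ratios scaling. The windows come from RefSeq on GRCm38.p6 and are written 5′ to 3′ on the gene's strand. They lie at chrX:86191525-86191824 (plus strand), chr1:118627695-118627994 (plus), chr4:55532426-55532725 (minus) and chr8:43306960-43307259 (minus). Capitals mark a match on either strand to any of 5 motifs. These are the octamer ATGCAAAT bound by POU factors, the nuclear receptor half-site AGGTCA, the CACCC box CCNCACCC of Krüppel-like factors, the STAT site TTCNNNGAA and the TCF site CTTTGA.
Nr0b1: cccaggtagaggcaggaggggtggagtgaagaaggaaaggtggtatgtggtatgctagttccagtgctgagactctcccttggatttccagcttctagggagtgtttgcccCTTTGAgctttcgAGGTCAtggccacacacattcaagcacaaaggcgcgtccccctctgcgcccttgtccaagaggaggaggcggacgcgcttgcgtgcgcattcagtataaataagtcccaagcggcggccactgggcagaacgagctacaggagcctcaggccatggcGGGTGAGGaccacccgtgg
Tfcp2l1: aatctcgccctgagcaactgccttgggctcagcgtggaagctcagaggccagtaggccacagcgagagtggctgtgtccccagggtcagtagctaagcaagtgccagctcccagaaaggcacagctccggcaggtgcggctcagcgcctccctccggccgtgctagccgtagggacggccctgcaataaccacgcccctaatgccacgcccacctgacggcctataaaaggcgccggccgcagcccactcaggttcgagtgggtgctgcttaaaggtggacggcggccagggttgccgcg
Klf4: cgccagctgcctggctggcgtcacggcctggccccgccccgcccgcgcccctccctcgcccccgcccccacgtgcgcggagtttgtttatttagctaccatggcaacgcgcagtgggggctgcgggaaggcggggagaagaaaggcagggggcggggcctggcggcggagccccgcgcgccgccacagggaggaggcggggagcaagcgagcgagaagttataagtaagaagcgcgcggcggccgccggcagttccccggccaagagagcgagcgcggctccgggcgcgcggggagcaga
Zfp42: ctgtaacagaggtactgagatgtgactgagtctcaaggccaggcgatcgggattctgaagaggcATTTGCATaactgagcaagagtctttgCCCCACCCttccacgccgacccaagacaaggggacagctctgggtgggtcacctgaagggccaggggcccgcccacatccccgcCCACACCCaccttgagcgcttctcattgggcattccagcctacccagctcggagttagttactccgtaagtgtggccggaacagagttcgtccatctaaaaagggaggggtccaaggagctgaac

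RefSeq windows were matched for 7 of the 10 members, in 9 windows, since Esrrb and Nr5a2 each have 2. The octamer stood in the Zfp42 window alone of these 9, with its first base at -186 relative to the start, and in 1.74% of all 32851 windows. The Nr0b1 window held the TCF site at -139 and the nuclear receptor half-site at -126, which 16% and 16.3% of all windows hold. A CACCC box stood in windows of Esrrb, Nr0b1, Nr5a2 and Zfp42, against 16.6% of all windows, and a STAT site in an Esrrb window only, against 8.3%. The Klf2, Klf4 and Tfcp2l1 windows held none of these letters. These matches are a description of the windows and show no binding. Klf5, Tbx3 and Prdm14 are named only.

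The genes lie on 7 chromosomes of GRCm38 (GENCODE M21), all annotated as protein coding. Tfcp2l1 (118627945 to 118685168), Nr5a2 (136842571 to 136960448) and Prdm14 (13113457 to 13127163) are on chromosome 1, and Klf2 (72319033 to 72321656) and Zfp42 (43295063 to 43306980) are on chromosome 8. Klf4 is at 55527143 to 55532466 on chromosome 4, Tbx3 at 119670669 to 119684724 on chromosome 5 and Esrrb at 86361117 to 86521628 on chromosome 12. Klf5 is at 99298691 to 99315036 on chromosome 14 and Nr0b1 at 86191764 to 86195947 on chromosome X.

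All 10 factors were highest in ESCs, and all 10 were lower in 2CLCs, in EpiSCs and in MEFs in the limma fit to FPKM as deposited, with Klf5 higher in 2CLCs when libraries were rescaled by the median of ratios. The summed FPKM of the 10 genes was 283 ± 21.5 in 2CLCs, 9.22 ± 2.99 in EpiSCs, 35.0 ± 1.20 in MEFs and 1033 ± 9.98 in ESCs (SD, n = 3 each). 2CLCs held an intermediate level of most factors, while EpiSCs and MEFs held little or none of most of them. In these bulk libraries fewer cells that express a factor and less of its RNA per cell cannot be told apart.

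**Figure D1:**
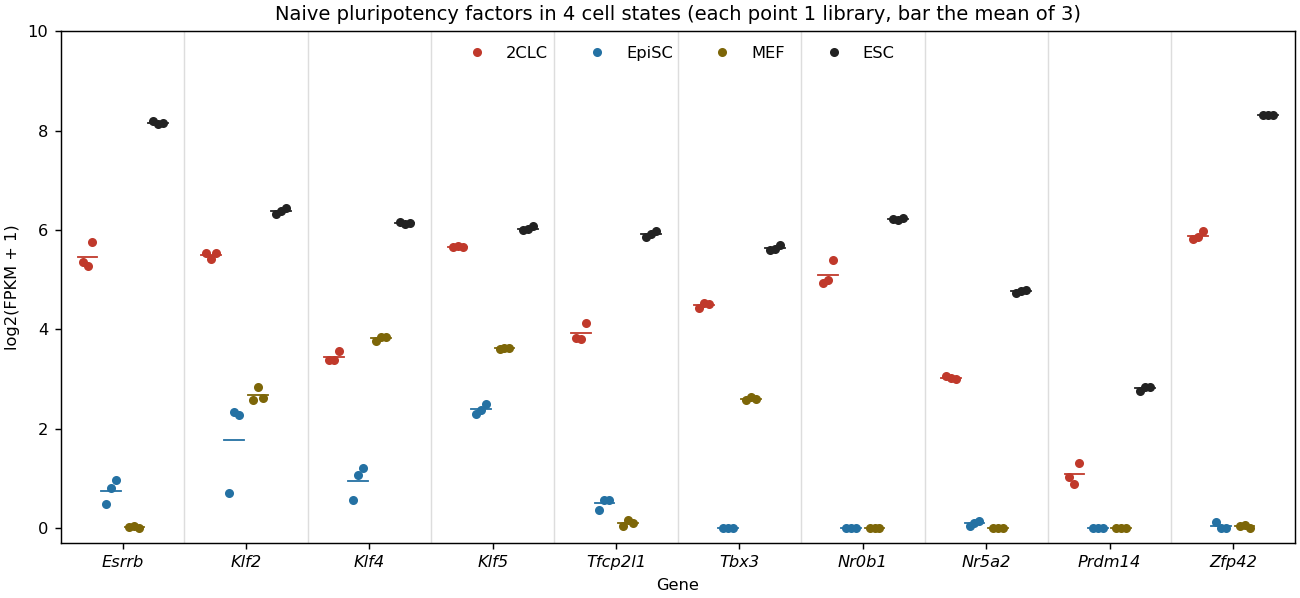
Levels of the 10 factors as log2(FPKM + 1) in 2CLC, EpiSC, MEF and ESC libraries, in that order for each gene; each point is 1 library and each bar the mean of 3. The ESC points lie above all others for every gene, with Zfp42 at 318 FPKM and Esrrb at 285 FPKM highest, and Tbx3, Nr0b1 and Prdm14 are listed at 0 in EpiSCs.

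In 2CLCs against ESCs, 10 of 10 factors were called lower (limma on log2(FPKM + 1), adjusted p under 0.05), and 8 by at least 1 on the log2 scale. Of all 16358 genes tested in that comparison 56.4% were called lower, and 26.5% by at least 1; among genes with at least 5 FPKM in ESCs, as all 10 factors have in every ESC library, those shares were 75.9% and 40%. So lower calls were the commonest outcome here. The count of 10 is read against a background in which the median gene was lower by 0.46 (log2 fold change -0.46). The calls split into 3296 higher and 9220 lower as deposited and into 6018 higher and 5301 lower after median-of-ratios scaling. The sizes of Esrrb, Zfp42, Klf4 and Klf5 below are therefore also given relative to that median. For the other factors the relative log2 fold changes were -1.54 (Tfcp2l1), -1.29 (Nr5a2), -1.28 (Prdm14), -0.69 (Tbx3), -0.66 (Nr0b1) and -0.42 (Klf2).

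The nuclear receptor Esrrb had 39.7, 37.9 and 53.0 FPKM in the 2CLC libraries, against 291, 279 and 285 FPKM in the ESC libraries. Every 2CLC library lay below every ESC library, with 2CLC replicate 3 the highest of its group, and 2CLCs held 15.3% of the ESC level (log2 fold change -2.70 ± 0.135 SE, -2.24 relative to the median gene, adjusted p = 7.28e-09). Zfp42, the most abundant of the 10 in ESCs, had 55.5, 56.6 and 61.6 FPKM in 2CLCs, against 319, 318 and 316 FPKM in ESCs. It kept 18.2% of its ESC level (log2 fold change -2.44 ± 0.062, -1.98 relative to the median gene, adjusted p = 2.07e-11). Klf4 had 9.44, 9.36 and 10.8 FPKM in 2CLCs, against 70.4, 68.1 and 69.6 FPKM in ESCs. With 14.2% of its ESC level left, it had the lowest share of the 10 as deposited, though not after quantile normalization (-2.23, against -2.75 for Esrrb and -2.60 for Zfp42) (log2 fold change -2.70 ± 0.136, -2.24 relative to the median gene, adjusted p = 7.98e-09).

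Tfcp2l1 (14.2 ± 1.94 FPKM in 2CLCs, 59.6 ± 2.28 FPKM in ESCs) and Nr5a2 (7.11 ± 0.172 and 26.3 ± 0.565 FPKM) held 23.9% and 27.1% of their ESC levels, with log2 fold changes of -2.00 and -1.75. Prdm14 had 1.03, 0.855 and 1.48 FPKM in 2CLCs, against 5.76, 6.15 and 6.10 FPKM in ESCs, or 18.7% of the ESC level (log2 fold change -1.73). Prdm14 was the least abundant factor in ESCs and is also the one that passed the filter of 1 FPKM in at least 3 libraries through its ESC libraries alone; the other 9 reach it in other groups too. Nr0b1 was the most variable of the 10 among 2CLC libraries in FPKM after Esrrb, with 29.4, 30.9 and 40.8 FPKM against 73.8, 72.3 and 74.7 FPKM in ESCs. It and Tbx3 (21.5 ± 0.875 FPKM in 2CLCs, 48.7 ± 1.98 FPKM in ESCs) held 45.8% and 44.0% of the ESC level, and after median-of-ratios scaling their log2 fold changes were -0.37 and -0.40, against -1.12 and -1.15 as deposited.

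Klf2 and Klf5 kept the largest shares. Klf2 had 45.5, 41.9 and 45.4 FPKM in 2CLCs, against 78.5, 82.7 and 85.6 FPKM in ESCs, and the groups did not overlap. Its log2 fold change of -0.88 ± 0.335 was called (adjusted p = 0.0324), but it lost the call after median-of-ratios scaling (-0.12, adjusted p = 0.750), after quantile normalization (-0.68, adjusted p = 0.0538), with a pseudocount of 0.1 (-0.89, adjusted p = 0.131) and when any 1 of the 6 compared libraries was left out (adjusted p between 0.0596 and 0.0816). The shared spread behind that test included EpiSC replicate 1, which had 0.631 FPKM of Klf2 where the other EpiSC libraries had 4.04 and 3.83 FPKM; without that library the adjusted p was 4.24e-07 at the same fold change. Klf5 had 49.1, 50.3 and 49.5 FPKM in 2CLCs, against 62.7, 63.4 and 66.6 FPKM in ESCs, or 77.2% of the ESC level. Its log2 fold change of -0.37 ± 0.058 (adjusted p = 1.23e-04) stood 0.09 above the median gene, and it was 0.39 after median-of-ratios scaling (adjusted p = 8.04e-05), so its direction depends on the scale.

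**Figure D2:**
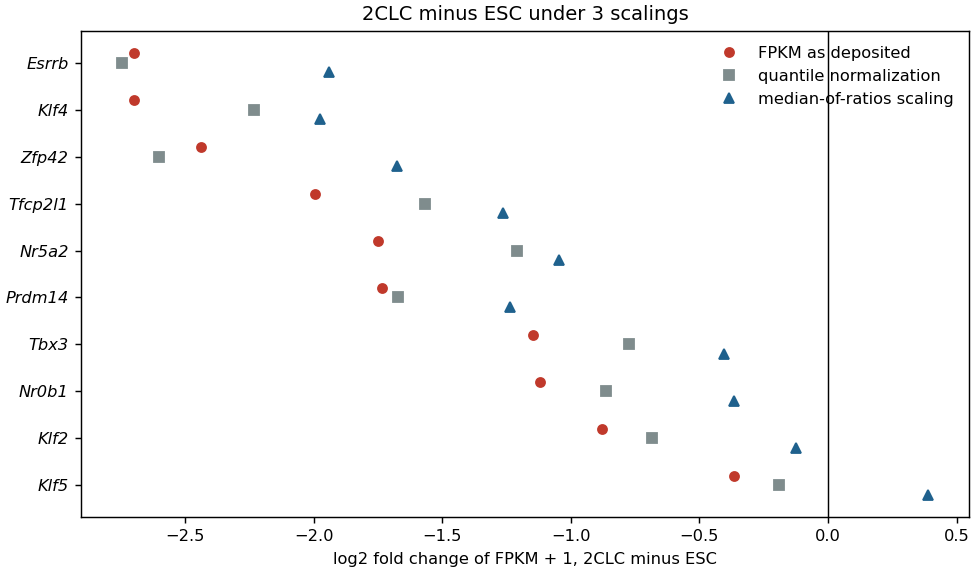
log2 fold change of FPKM + 1, 2CLC minus ESC, of each factor as deposited, after quantile normalization and after median-of-ratios scaling. Esrrb, Klf4 and Zfp42 lie between -2.75 and -1.68 under each scale. Klf2 is at -0.88 as deposited and at -0.12 after median-of-ratios scaling, and Klf5 is at -0.37 and, with its sign turned, at 0.39.

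The share of Klf4 among the Krüppel-like trio does not depend on the scale of a library. Klf4 made up 9.07%, 9.21% and 10.2% of the summed Klf2, Klf4 and Klf5 FPKM in 2CLC libraries, 9.36%, 11.6% and 13.4% in EpiSC libraries, 44.0%, 43.2% and 44.7% in MEF libraries, and 33.3%, 31.8% and 31.4% in ESC libraries. The make-up of the trio in 2CLCs thus leaned to Klf5 (47.8 ± 1.48%) and Klf2 (42.7 ± 1.29%), in MEFs to Klf4, and in ESCs it was near even. In EpiSC replicate 1 Klf5 was 78.0% of the trio, against 45.1% and 47.3% in the other EpiSC libraries. Across the 14 other Krüppel-like factors, of which 12 were tested, 1 rose and 11 fell in 2CLCs against ESCs as deposited, and 2 were called higher and 6 lower after median-of-ratios scaling. Klf17, the family member known from 2-cell embryos and human naive cells, rose to 4.37 ± 0.606 FPKM in 2CLCs, against 0.0849 ± 0.0509 FPKM in ESCs. Klf13 fell to 1.02 ± 0.258 FPKM in 2CLCs, against 9.75 ± 0.574 FPKM in ESCs.

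**Figure D3:**
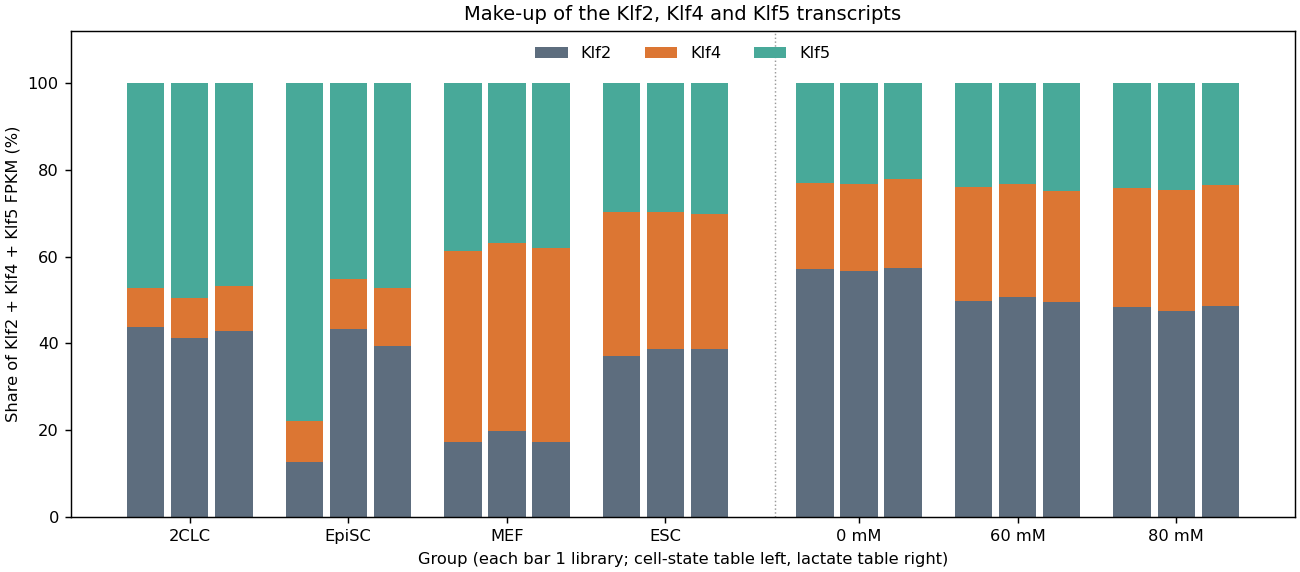
Share of Klf2, Klf4 and Klf5 in their summed FPKM, in percent; each bar is 1 library, with the cell-state table left of the dotted line and the lactate table right of it. The Klf4 share is 9.50% on average in 2CLCs, 11.4% in EpiSCs, 44.0% in MEFs and 32.1% in ESCs, and 20.2%, 26.1% and 27.8% at 0, 60 and 80 mM lactate.

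Genes of the pathways that feed these factors are read against all genes, of which 56.4% were called lower in 2CLCs against ESCs, and 75.9% of those with at least 5 FPKM in ESCs. Of 11 LIF-STAT3 genes 2 rose and 9 fell in 2CLCs against ESCs, with a median log2 fold change of -1.52 against -0.46 over all genes tested. Stat3 itself was at 3.89 ± 0.683 FPKM in 2CLCs and 32.6 ± 1.12 FPKM in ESCs. Its target and feedback inhibitor Socs3 was at 5.90 ± 0.854 FPKM in 2CLCs and 39.3 ± 0.899 FPKM in ESCs. Of 17 FGF-ERK genes 2 rose and 15 fell (median -1.35), among them Spry4 at 1.30 ± 0.524 FPKM in 2CLCs and 37.3 ± 0.635 FPKM in ESCs. Of 13 WNT-TCF genes 1 rose and 11 fell (median -0.77), among them Tcf7. Among 14 other pluripotency regulators none rose and 11 fell, with Sox2 at 19.9 ± 4.41 FPKM in 2CLCs and 131 ± 1.22 FPKM in ESCs. Among close paralogs and partners of the 10 factors, Tfcp2, the paralog of Tfcp2l1, rose to 33.5 ± 3.36 FPKM in 2CLCs, against 3.05 ± 0.466 FPKM in ESCs. The lower counts of these lists (9 of 11, 15 of 17, 11 of 13 and 11 of 14) all lie near the share of all genes with at least 5 FPKM in ESCs. After median-of-ratios scaling, a check of the lists added after seeing the data, 36.8% of all genes were called higher and 32.4% lower. On that scale 2 LIF-STAT3 genes were called higher and 8 lower, 4 FGF-ERK genes higher and 10 lower, 4 WNT-TCF genes higher and 5 lower, and 3 of the other regulators higher and 9 lower.

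Not every gene known from the naive state was lower in 2CLCs: of 15 naive-state genes outside the 10 factors, 3 rose and 9 fell. Of all genes tested 20.1% were called higher in 2CLCs and 56.4% lower. Fbxo15, an F-box gene first found as an Oct4 target in ESCs, was at 908 ± 68.9 FPKM in 2CLCs and 51.7 ± 0.682 FPKM in ESCs. Tet2, a DNA demethylase gene, was at 4.25 ± 1.19 and 40.8 ± 1.84 FPKM. Beside the falls of the factors, all 12 of the 2-cell markers rose. Of 13 primed-state genes 1 rose and 9 fell, with sums of 64.6 to 66.5 FPKM in 2CLCs and 119 to 132 FPKM in ESCs and Fgf5 at 0 in 2CLCs. The fibroblast markers summed to 61.5 to 72.2 FPKM in 2CLCs and 102 to 105 FPKM in ESCs (2 of 12 rose, 2 fell, Prrx1 at 0 in both). The trophectoderm markers summed to 12.0 to 15.9 and 37.0 to 39.7 FPKM (3 of 7 tested fell, Krt7 at 0 in 2CLCs). The primitive endoderm markers summed to 18.6 to 20.6 and 24.3 to 26.5 FPKM (4 of 6 tested rose, 1 fell, Sox7 at 0 in 2CLCs). The part of other cell types in the levels of the factors was not tested.

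In EpiSCs against ESCs 10 of 10 factors fell, each by at least 1, where 26.5% of all genes tested were called lower and 7.9% by at least 1; among genes with at least 5 FPKM in ESCs the shares were 36.6% and 10%. Zfp42 was listed at 0.0922, 0 and 0 FPKM in EpiSCs, against 319, 318 and 316 FPKM in ESCs (adjusted p = 2.26e-14). Tbx3, Nr0b1 and Prdm14 were listed at 0 in all 3 EpiSC libraries, so no fold is given for them. ESC libraries had at least 47.4, 72.3 and 5.76 FPKM of them. The limma adjusted p was 3.88e-13 for Tbx3 and 5.84e-12 for Nr0b1. Prdm14 entered the test through its ESC libraries alone, so its call adds no support to the count of 10 and its p-value is left out. Esrrb had 0.398, 0.750 and 0.949 FPKM in EpiSCs, a level 408 times lower than the 285 FPKM of ESCs, and Tfcp2l1 (0.410 ± 0.106 FPKM) and Nr5a2 (0.0662 ± 0.0365 FPKM) were 145 and 397 times lower.

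Klf5 was the most abundant factor in EpiSCs, with 3.88, 4.20 and 4.61 FPKM there against 62.7, 63.4 and 66.6 FPKM in ESCs. No library came near the other group, and its log2 fold change of -3.64 ± 0.058 was the smallest among the 7 factors with a level above 0 in EpiSCs (adjusted p = 3.83e-12). Klf4 had 0.466, 1.08 and 1.30 FPKM in EpiSCs, against 70.4, 68.1 and 69.6 FPKM in ESCs (log2 fold change -5.20). All 10 calls held when each library was left out in turn, EpiSC replicate 1 included. Beside these falls 11 of 13 primed-state genes rose in EpiSCs. Of all 16358 genes tested, 5438 were called higher there and 4327 lower. Otx2 was at 93.2 ± 14.8 FPKM in EpiSCs and 1.18 ± 0.124 FPKM in ESCs. Among LIF-STAT3 genes Socs3 fell to 2.84 ± 0.235 FPKM in EpiSCs, against 39.3 ± 0.899 FPKM in ESCs, in a list with 4 higher and 5 lower of 11. Of the 15 naive-state genes outside the 10 factors none rose and 13 fell, Dppa5a to 0.259 ± 0.225 FPKM in EpiSCs, against 513 ± 1.76 FPKM in ESCs. The trophectoderm markers summed to 362 to 425 FPKM in EpiSCs and 37.0 to 39.7 FPKM in ESCs (3 of 7 tested rose, 4 fell), almost all of it in the keratins Krt18 and Krt8, with Cdx2 at 0 in EpiSCs. The fibroblast markers summed to 47.7 to 104 FPKM in EpiSCs and 102 to 105 FPKM in ESCs (6 of 12 rose, none at 0 in EpiSCs). The primitive endoderm markers summed to 16.0 to 17.9 and 24.3 to 26.5 FPKM (3 of 6 tested rose, 1 fell, Sox7 at 0 in EpiSCs), and the 2-cell markers summed to at most 0.297 FPKM in EpiSCs. Their part in the result was not tested.

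MEFs, which are not pluripotent, had 4 of the factors at 5 FPKM or more on average. In MEFs against ESCs 10 of 10 factors fell, each by at least 1, where 40.9% of all genes tested were called lower and 20.5% by at least 1; among genes with at least 5 FPKM in ESCs the shares were 57.7% and 31.2%. Klf4, known also as a regulator of growth arrest, had 12.7, 13.3 and 13.3 FPKM in MEFs, against 70.4, 68.1 and 69.6 FPKM in ESCs. The MEF libraries lay above every 2CLC library (9.36 to 10.8 FPKM) and EpiSC library (0.466 to 1.30 FPKM), so for Klf4 MEFs stood second in FPKM as deposited, whereas for the other 9 factors 2CLCs did. That place depends on the scale: the log2 fold change of Klf4 against ESCs was -1.98 in 2CLCs and -2.12 in MEFs after median-of-ratios scaling, and -2.23 and -2.33 after quantile normalization. Klf5 was at 11.3 ± 0.127 FPKM, Klf2 at 5.41 ± 0.615 FPKM and Tbx3 at 5.07 ± 0.145 FPKM in MEFs, with log2 fold changes against ESCs of -2.41, -3.70 and -3.03. Nr0b1, Nr5a2 and Prdm14 were listed at 0 in every MEF library, and Esrrb, Tfcp2l1 and Zfp42 stayed at or below 0.113 FPKM. Prdm14 entered the test through its ESC libraries alone, so its call adds no support to the count of 10 in MEFs either.

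Set directly against EpiSCs, 2CLCs were higher for 10 of 10 factors, where 23.4% of all genes tested were called higher and 58.7% lower. That is 3823 higher and 9605 lower as deposited, with the median gene at -0.55, and 6815 and 5917 after median-of-ratios scaling. Esrrb was 62.3 times higher and Klf5 11.7 times higher in 2CLCs, and Tbx3, Nr0b1 and Prdm14 were measured in 2CLCs and listed at 0 in EpiSCs. Between EpiSCs and MEFs, 2 factors were higher in EpiSCs and 4 lower, where 41.9% of all genes tested were called higher and 30.5% lower. That is 6857 higher and 4992 lower as deposited, with the median gene at 0.105, and 5388 and 6010 after median-of-ratios scaling. Esrrb (0.699 ± 0.279 FPKM in EpiSCs, 0.0154 ± 0.0144 FPKM in MEFs, adjusted p = 4.60e-04) and Tfcp2l1 (0.410 ± 0.106 and 0.0703 ± 0.0419 FPKM, adjusted p = 0.00335) were the higher ones, both under 1 FPKM, and neither was called with a pseudocount of 5. Klf4, Klf5 and Tbx3 were lower in EpiSCs (log2 fold changes of -2.88 and -1.24 for Klf4 and Klf5, with Tbx3 listed at 0 in EpiSCs), and Klf2 was lower (-0.90) with a call that was lost when any 1 MEF library was left out and in a fit of only these 2 groups (adjusted p = 0.155). The Klf2 change ranged from -1.19 to -0.37 over the fits that left out 1 library. EpiSC replicate 1 had 0.631 FPKM of Klf2, the other EpiSC libraries 4.04 and 3.83 FPKM. Zfp42 and Nr5a2 were not called, although Nr5a2 was called higher in EpiSCs with a pseudocount of 0.1 (adjusted p = 0.00237) and in a fit of only these 2 groups (adjusted p = 0.0242), and Nr0b1 and Prdm14 were listed at 0 in both groups.

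Under lactate some of the factors rose and others fell. The summed FPKM of the 10 genes was 1074 ± 25.2 at 0 mM, 1037 ± 25.3 at 60 mM and 1061 ± 18.2 at 80 mM (SD, n = 3 each), and the ranges of the 3 groups overlapped. At both doses 6 factors were called higher than at 0 mM (Klf4, Klf5, Tbx3, Nr5a2, Prdm14 and Zfp42) and 4 lower (Esrrb, Klf2, Tfcp2l1 and Nr0b1), and Nr0b1 alone changed by at least 1 on the log2 scale. Of the 13271 genes tested, 23.5% were called higher and 18.6% lower at 60 mM, and 30% higher and 23.1% lower at 80 mM. Calls of at least 1 lower were 0.603% and 1.03%. Shares among genes expressed at levels like those of the factors are not given here, so the 10 calls are not read against level. At 80 mM the split was 3977 higher and 3064 lower as deposited and 3269 higher and 3913 lower after median-of-ratios scaling. Both doses share the 0 mM libraries, so their calls are not independent of each other.

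**Figure D4:**
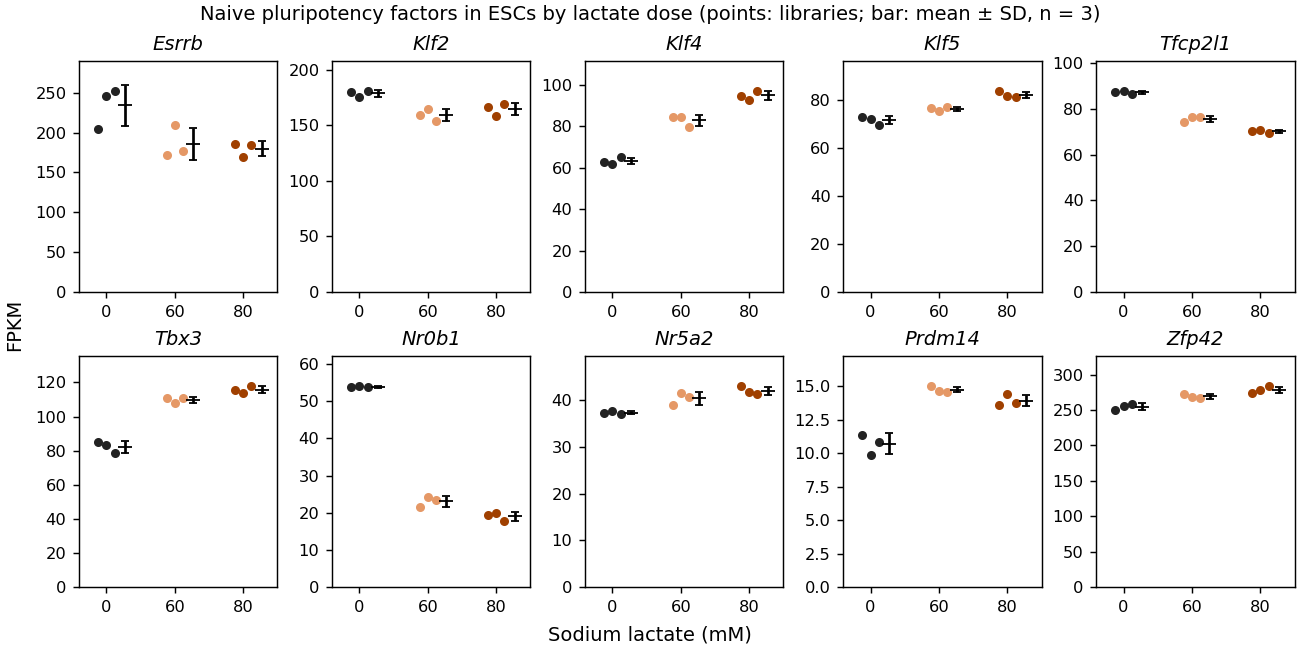
FPKM of each factor in ESCs at 0, 60 and 80 mM sodium lactate; points are libraries and the bar beside them is the mean ± SD of 3, on axes that start at 0. Nr0b1 lies at 53.7 to 54.0 FPKM at 0 mM, 21.5 to 24.2 FPKM at 60 mM and 17.7 to 19.9 FPKM at 80 mM, and Klf4 and Tbx3 step up with lactate.

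Nr0b1 had 53.7, 54.0 and 53.7 FPKM at 0 mM, 21.5, 24.2 and 23.5 FPKM at 60 mM, and 19.5, 19.9 and 17.7 FPKM at 80 mM. The 3 doses did not overlap, and the 3 libraries at 0 mM differed by less than 1 FPKM. The log2 fold change against 0 mM was -1.19 ± 0.054 at 60 mM (adjusted p = 3.18e-07) and -1.45 ± 0.054 at 80 mM (adjusted p = 3.60e-08), leaving 42.8% and 35.4% of the level. The step between 60 and 80 mM was -0.26 (adjusted p = 0.0211). That last call was lost in 4 of the 9 fits that left out a library. It was also lost with no filter on low genes (adjusted p = 0.0646) and in a fit of the compared groups alone (adjusted p = 0.0534). The changes against 0 mM were called in all alternatives. The protein of Nr0b1 partners with Nr5a2 and Esrrb, and its ratio to Nr5a2 in FPKM was 1.44 ± 0.0102 at 0 mM, 0.571 ± 0.0176 at 60 mM and 0.454 ± 0.0238 at 80 mM.

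Tfcp2l1 had 87.4, 87.7 and 86.3 FPKM at 0 mM, 74.1, 76.6 and 76.3 FPKM at 60 mM, and 70.4, 70.7 and 69.3 FPKM at 80 mM. The doses did not overlap, and the change was -13.2% at 60 mM and -19.5% at 80 mM (log2 fold changes -0.20 ± 0.027 and -0.31 ± 0.027, adjusted p = 2.48e-04 and 8.18e-06). Esrrb had 205, 246 and 252 FPKM at 0 mM, 171, 209 and 177 FPKM at 60 mM, and 185, 170 and 185 FPKM at 80 mM. It had the widest spread of the 10, and at 60 mM its libraries overlapped those at 0 mM (log2 fold change -0.33 ± 0.089, adjusted p = 0.0132), with the call lost without 0 mM replicate 3 (adjusted p = 0.0502) and with no filter on low genes (adjusted p = 0.0640). At 80 mM it was lower (log2 fold change -0.37, adjusted p = 0.00535) and no longer overlapped. Klf2 was 179 ± 3.15 FPKM at 0 mM, 159 ± 5.33 FPKM at 60 mM and 165 ± 5.63 FPKM at 80 mM, with changes of -11.0% at 60 mM and -7.75% at 80 mM; the change at 80 mM was no longer called after quantile normalization (adjusted p = 0.205), with no mean trend (adjusted p = 0.0574) or without 80 mM replicate 2 (adjusted p = 0.0610).

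Klf4 rose the most at 80 mM, with 62.6, 62.0 and 65.1 FPKM at 0 mM, 84.4, 84.7 and 79.9 FPKM at 60 mM, and 94.9, 93.0 and 97.0 FPKM at 80 mM. Each dose lay above the one before it, with log2 fold changes against 0 mM of 0.39 ± 0.034 (adjusted p = 2.03e-05) and 0.58 ± 0.034 (adjusted p = 7.20e-07), and 80 mM was above 60 mM by 0.19 (adjusted p = 0.0116). Tbx3 had 85.3, 83.2 and 78.6 FPKM at 0 mM, 111, 108 and 111 FPKM at 60 mM, and 116, 114 and 118 FPKM at 80 mM. Both lactate groups lay above the 0 mM libraries, by 0.41 and 0.49 on the log2 scale (adjusted p = 1.30e-05 and 2.01e-06), and the step between 60 and 80 mM was not called. Prdm14 had 11.4, 9.87 and 10.9 FPKM at 0 mM, 15.0, 14.7 and 14.6 FPKM at 60 mM, and 13.6, 14.4 and 13.8 FPKM at 80 mM. It was higher by 0.43 at 60 mM and by 0.35 at 80 mM (adjusted p = 2.02e-04 and 4.29e-04).

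Klf5, Nr5a2 and Zfp42 rose less, by 15.0%, 12.5% and 9.28% at 80 mM, with means of 71.6, 37.3 and 255 FPKM at 0 mM, 76.4, 40.3 and 269 FPKM at 60 mM, and 82.3, 42.0 and 279 FPKM at 80 mM. At 60 mM their rises were 6.75%, 8.13% and 5.66%, and after median-of-ratios scaling none of these 3 was called at 60 mM and Zfp42 was also not called at 80 mM (adjusted p = 0.0903). The 60 mM call was lost in 3 of the 9 fits that left out a library for Klf5, in 4 for Nr5a2 and in 3 for Zfp42. Within the Krüppel-like trio the Klf4 share was 19.8%, 20.1% and 20.6% at 0 mM, 26.3%, 26.1% and 25.7% at 60 mM, and 27.5%, 27.9% and 27.9% at 80 mM. The share of Klf2 was 57.0 ± 0.333%, 49.9 ± 0.631% and 48.2 ± 0.575% at the 3 doses.

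**Figure D5:**
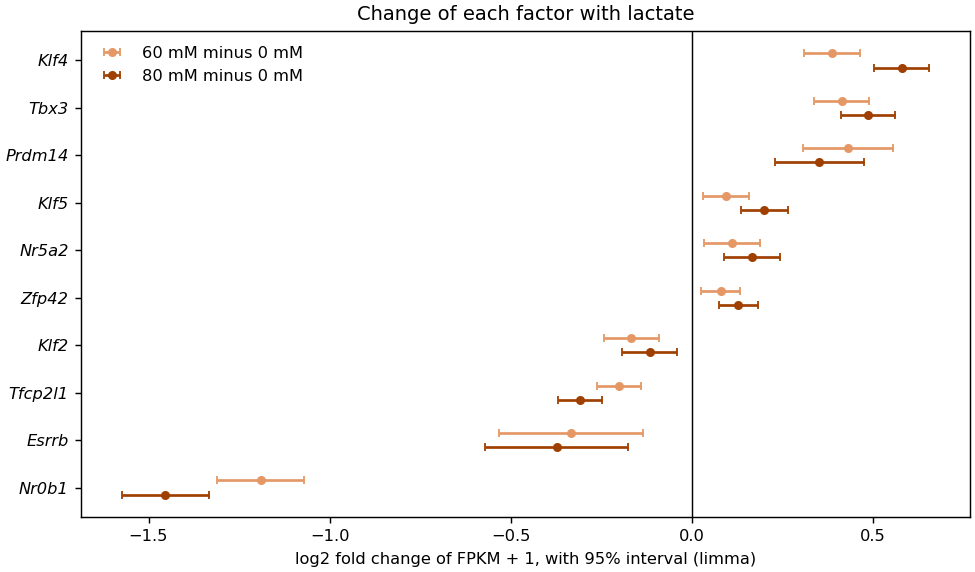
log2 fold change of FPKM + 1 against 0 mM with its 95% interval from limma, for 60 and 80 mM lactate, sorted by the change at 80 mM. Nr0b1 stands apart at -1.19 and -1.45, the other 9 factors lie between -0.37 and 0.58, and the intervals of Klf5, Nr5a2, Zfp42 and Klf2 lie close to 0.

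Between 80 and 60 mM, 1 factor was higher (Klf4) and 2 lower (Nr0b1 and Tfcp2l1), and 7 were not called, where 4.06% of all genes tested were called higher and 2.11% lower (449 higher and 465 lower after median-of-ratios scaling, against 539 and 280 as deposited). Tfcp2l1 was lower (log2 fold change -0.11, adjusted p = 0.0440) and lost the call in each of the 9 fits that left out a library. Klf5 was next to the threshold (0.11 higher, adjusted p = 0.0578). Tbx3, Zfp42 and Prdm14 did not overlap between the doses and were not called, Tbx3 with a 95% interval of -0.0029 to 0.15.

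The pathway genes around the factors moved in both directions under lactate. At 80 mM against 0 mM, 30% of all genes tested were called higher and 23.1% lower. Of 11 LIF-STAT3 genes 4 were called higher and 2 lower at 80 mM against 0 mM (median log2 fold change -0.08, against 0.03 over all genes), with Stat3 at 21.2 ± 0.880 FPKM at 80 mM and 25.3 ± 0.338 FPKM at 0 mM. Of 13 WNT-TCF genes 7 were higher and 1 lower (median 0.10), with the adhesion partner of beta-catenin Cdh1 at 170 ± 4.17 FPKM at 80 mM and 118 ± 1.88 FPKM at 0 mM. Lef1 was at 0.434 ± 0.137 and 1.46 ± 0.178 FPKM. Of 17 FGF-ERK genes 7 were higher and 4 lower (median 0.02). Among the lower ones Etv4 had 8.07 ± 1.29 FPKM at 80 mM and 36.5 ± 2.33 FPKM at 0 mM. Spry4 had 4.21 ± 0.0275 and 10.1 ± 0.948 FPKM, and Dusp6 had 7.11 ± 0.677 and 13.5 ± 0.339 FPKM. Fgfr2, an FGF receptor gene, was at 1.76 ± 0.0892 FPKM at 80 mM and 0.277 ± 0.0856 FPKM at 0 mM.

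Among 14 other pluripotency regulators 5 were higher and 7 lower at 80 mM, against 30% and 23.1% of all genes tested. Gbx2, a homeobox gene induced by LIF, was at 2.48 ± 0.586 FPKM at 80 mM and 12.4 ± 0.987 FPKM at 0 mM, and Sox2 was at 237 ± 8.09 and 185 ± 1.79 FPKM. Among 15 naive-state genes that are no transcription factors of this set 8 were higher and 5 lower. Dppa3 (Stella) was at 36.7 ± 2.21 FPKM at 80 mM and 2.64 ± 0.170 FPKM at 0 mM. Dnmt3l, a cofactor of DNA methyltransferases, was at 114 ± 2.91 and 207 ± 5.51 FPKM. Tdh, the mitochondrial threonine dehydrogenase, was at 176 ± 3.50 and 291 ± 3.08 FPKM. Of the 14 other Krüppel-like factors, 11 were tested, none was called higher and 6 were called lower at 80 mM, with Klf12 at 2.15 ± 0.359 FPKM at 80 mM and 5.18 ± 0.390 FPKM at 0 mM. In the named trio Klf4 and Klf5 rose and Klf2 fell.

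Markers of other cell types moved in the same libraries. The counts below stand beside 30% of all genes tested called higher and 23.1% lower at 80 mM. Of 12 2-cell markers 11 were tested and 11 rose at both doses, with summed levels of 54.3 to 60.2 FPKM at 0 mM, 125 to 138 FPKM at 60 mM and 203 to 215 FPKM at 80 mM and no marker at 0 at any dose. Of 10 trophectoderm markers 7 were tested, and 4 rose and 2 fell at 80 mM, with sums of 36.6 to 39.5, 42.6 to 44.3 and 51.2 to 58.6 FPKM at 0, 60 and 80 mM. Of 10 primitive endoderm markers 4 were tested, and 2 rose and 2 fell at 80 mM, with sums of 32.7 to 33.4, 29.7 to 30.8 and 32.6 to 35.9 FPKM. Of 14 primed-state genes 10 were tested, and 3 rose and 6 fell at 80 mM, with sums of 121 to 127, 134 to 144 and 136 to 138 FPKM; Fgf5 was at 0 at 60 mM and Foxa2 at 80 mM. Of 12 fibroblast markers 4 were tested, with 2 higher and 2 lower at 80 mM and sums of 161 to 177, 61.2 to 68.2 and 53.4 to 55.8 FPKM at the 3 doses. Vim was at 48.1 ± 1.38 FPKM at 80 mM and 167 ± 8.18 FPKM at 0 mM, and Prrx1 was listed at 0 at every dose, Postn at 0 and 80 mM and Dcn at 60 and 80 mM. The part of these cell types in the changes of the 10 factors was not tested.

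Genes with changes nearest to those of each factor were sought. The 7280 candidates had a mean of at least 5 FPKM in ESCs and at 0 mM. The distance was the mean absolute difference of log2 fold change over the 5 contrasts against ESCs or 0 mM. The nearest to Nr0b1 was Hsd17b14, a dehydrogenase gene, at a mean difference of 0.29 (log2), with changes of -0.98 at 60 mM and -1.26 at 80 mM, and Dnmt3l followed at 0.44. No other factor was as near to Nr0b1, the closest being Tfcp2l1 at 0.84. The nearest to Prdm14 was Zfhx2 at 0.08 and to Nr5a2 was Rbfaos at 0.14. Esrrb was nearer to Zfp42 (0.44) than to any gene outside the 10 (Tdh, 0.51), and among the 10 Klf4 and Tbx3 were nearest to each other (0.56), as were Klf2 and Nr5a2 (0.51). Under lactate, however, Esrrb and Zfp42 went opposite ways (-0.37 and 0.13 at 80 mM), while Tdh fell like Esrrb (-0.72). Klf2 and Nr5a2 also went opposite ways (-0.12 and 0.17 at 80 mM). These distances rest on 5 contrasts that share control libraries and are a description. Where a gene is listed at 0 in EpiSCs and MEFs, its changes there are set by its ESC level alone. That holds for Prdm14 (-2.81 in both) and Nr0b1 (-6.22 in both). It nearly holds for Zfp42 (-8.27 in EpiSCs and -8.28 in MEFs) and Nr5a2 (-4.68 and -4.77), at most 0.102 FPKM in both groups. Esrrb and Tfcp2l1 stayed under 1 FPKM there. The distances of all these factors, that between Esrrb and Zfp42 included, therefore in part compare ESC levels.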

How the data were processed

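The authors deposited FPKM in 2 tables, for cell states and lactate doses. The submitters' processing notes name HISAT2 2.0.4, StringTie 2.1.4 and mm10, with no gene annotation named. Entries sharing a gene name were summed, none of them a factor described here. limma 3.58.1 (R 4.3.3) was fitted to log2(FPKM + 1), a scale that understates changes near 0, with a mean-variance trend and every group of a table in the model; a gene entered if 3 or more libraries reached 1 FPKM. Benjamini-Hochberg adjustment ran over all tested genes per comparison (threshold 0.05). Read depth is unknown. Named are all 10 factors, up to 4 called genes per list with the largest changes, and the nearest genes. Members, lists and tests were chosen with earlier results of these data known. The fit was tested on simulated data with 200 changed genes in each comparison. There the share of false calls among the calls was above the threshold for 2CLCs (10.8%) and MEFs (5.53%) against ESCs. It was also above it for 2CLCs against EpiSCs (6.58%), EpiSCs against MEFs (10.1%) and 80 against 0 mM (8.70%). More genes were called in the data than were changed in the simulation. The false share depends on how many genes change, so these shares do not carry over to the real calls. Tables and plots used Python 3.11.15 (numpy 2.4.6, pandas 2.3.3, matplotlib 3.10.9). Alternatives tried: pseudocounts of 0.1 and 5; filters of none and 5 FPKM; 2 rescalings (median-of-ratios, quantile); omitting the trend; fitting the compared groups alone; a replicate block; and dropping single libraries.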

Additional observations from a re-analysis of the deposited data

How the results depend on the processing

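Of 78 fold changes of the factors, 61 kept their direction and their side of the threshold under every alternative. The unknown read depth limits what can be said of levels near 0. The cause of the changes below was not tested.

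In 2CLCs against ESCs median-of-ratios scaling gave 1 factor called higher, Klf5 (log2 fold change 0.39), and 6018 genes higher and 5301 lower, and a filter of 5 FPKM left 2133 genes higher. In 2CLCs against EpiSCs that scaling gave 6815 genes higher and 5917 lower, and the filter of 5 FPKM 2493 higher. Between EpiSCs and MEFs a pseudocount of 5 left 0 factors higher, and the change of Zfp42, 0.0072 in the fit reported, was -0.000767 after median-of-ratios scaling, -0.0057 after quantile normalization, -0.035 without EpiSC replicate 1 and -0.010 without MEF replicate 3, in a range of -0.035 to 0.028 over the fits that left out 1 library.

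At 60 against 0 mM 3 factors were called higher, not 6, after median-of-ratios scaling and 3 with no mean trend, and at 80 against 0 mM the filter of 5 FPKM left 2626 genes higher. Between 80 and 60 mM 2 factors were called higher with the filter of 5 FPKM (Klf4 and Klf5); 1 was called lower with no filter, after quantile normalization, with no mean trend or with the replicate block, and 0 with only the compared groups; no filter gave 321 genes higher and 135 lower, median-of-ratios scaling 465 lower and no mean trend 166 lower. Leaving out each library gave 0 to 1 factors lower, 255 to 532 genes higher and 107 to 265 lower there. The change of Esrrb between these doses, -0.04 as reported, was 0.0052 after quantile normalization, 0.048 without 60 mM replicate 2 and 0.0014 without 80 mM replicate 2, in a range of -0.096 to 0.048.

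Replicate numbers are common to the groups. Same-numbered libraries showed little common deviation, with correlations of -0.066 to 0.103 for cell states and -0.014 to 0.072 for lactate. With 3 libraries a group this cannot exclude a shared batch that moves few genes, and whether there was one is not known. With a replicate block the call of Tfcp2l1 at 80 against 60 mM was lost (adjusted p = 0.0765).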
